A study of Mus musculus with 8 samples.

Results

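The genes of the BCL2 family were followed by microarray in Ebf1-deficient pro-B cells of the mouse, in 4 groups. The family was taken as 10 listed genes, in 3 classes: the anti-apoptotic Bcl2, Bcl2l1, Mcl1, Bcl2a1b and Bcl2a1d, the effectors Bax and Bak1, and the BH3-only genes Bcl2l11, Bbc3 and Bid. Members were found by matching the transcript identifier of each probe to a RefSeq gene symbol. Of the 10 genes, 9 had a probe, with 11 probes among the 39378 analysed and 20125 gene symbols in all. Bcl2a1b was matched by no probe and is not described by signal here. Bcl2l1 and Mcl1 each had 2 probes, and the probe with the higher mean over the 8 arrays stands for the gene unless the second probe is named. All 9 genes gave a signal well above background, the scanner software's test of a spot against its local background, in at least 1 group.

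BCL2 family proteins set the threshold at which the outer mitochondrial membrane is permeabilised during apoptosis. The anti-apoptotic members bind and hold back the effectors BAX and BAK, which form the pores, and the BH3-only members relay death signals by binding the anti-apoptotic members or by activating the effectors directly. In developing lymphocytes, survival through IL-7 receptor signalling is known to depend on BCL2, BCL-XL (the product of Bcl2l1) and MCL1, and to be opposed by BIM (the product of Bcl2l11).

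The study asked what separates pro-B cells that can still enter the T-cell lineage from pro-B cells that cannot, and whether the adaptor protein LMO2 accounts for part of the difference. Both lines came from fetal liver progenitors of Ebf1-deficient embryos, that is, embryos without the transcription factor that B-lineage commitment needs, and were grown with SCF, Flt3L and IL-7. The pro-B(+) line was kept on OP9 stroma and retained T-lineage potential, and the pro-B(-) line was kept on TD7 thymic stroma and did not. In the other groups, pro-B(-) cells carried an empty vector (pro-B(-)/Mock) or an Lmo2 vector (pro-B(-)/LMO2), described in the methods as lentiviral with a rat CD2 reporter.

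Each group had 2 arrays. Each potential is represented by 1 line, so that line, stroma and potential cannot be told apart between pro-B(+) and pro-B(-). The labels do not give the stroma of the transduced cells or the age of the cultures. The arrays of pro-B(+) and pro-B(-) lay on 1 slide and those of the transduced cells on the other, so both main comparisons were made within a slide. A legend of the study describes the parental data as coming from independent biological replicates, but the sample titles do not state that replicates were separate cultures, and the p-values then measure only the spread between these arrays, which may be technical.

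The arrays were of even quality. The share of probes well above background ranged from 56.5% to 61.2% over the arrays, and no spot was saturated. Replicate arrays correlated at r = 0.999, with an SD of 0.13 to 0.15 for the log2 difference over 20376 probes, against an SD of 0.50 to 0.84 between arrays of different groups. The Lmo2 probe averaged 2.09 in pro-B(+), 0.63 in pro-B(-), 0.35 in Mock and 0.96 in LMO2 cells, on the scale of all levels given here, log2 signal relative to the 75th percentile of the array. It was thus 0.61 log2 units higher in LMO2 than in Mock cells (SE 0.035, limma adjusted p = 4.0e-05, 2 arrays per group), and whether the probe lies in the part of the transcript carried by the vector is not known here. The Ebf1 probe was well above background on all 8 arrays, at group means of 1.12 to 1.51; its place relative to the deleted part of the gene is not known here either, so it checks nothing. Of the 13 pro-B markers, the number well above background on each array of the group was 11 in pro-B(+), pro-B(-) and Mock cells and 10 in LMO2 cells, and Cd79a, which encodes a chain of the B-cell receptor complex, was not well above background in Mock or LMO2 cells.

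Between the parental lines, pro-B(+) against pro-B(-), the family did not move as a block. Bcl2a1d was far higher in pro-B(+) cells and Bcl2l1 was slightly higher, whereas Bcl2, Bax, Bbc3 and Bid were lower. Mcl1, Bak1 and Bcl2l11 did not pass the test. Thus 6 of the 9 genes were called at an adjusted p under 0.05, 2 higher and 4 lower. Of all 23467 probes tested, 48.9% were called, 20.9% higher and 28.1% lower, so calls were common everywhere and the number of members called is read against that share. The median log2 change was -0.10 over the members and -0.04 over all probes tested.

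With Lmo2 in pro-B(-) cells, the 4 measured anti-apoptotic genes all rose, as did the BH3-only genes Bcl2l11 and Bbc3. Bid fell, and the effectors Bax and Bak1 did not pass the test. This gave 7 of 9 genes called, 6 higher and 1 lower, beside 64.8% of the 22995 probes tested (28.0% higher, 36.8% lower). The median log2 change of the members was 0.39 and that of all probes was -0.05. Of the 6 members that rose, Mcl1 alone lost its call in some of the other settings tried, as given with its values.

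**Figure D1:**
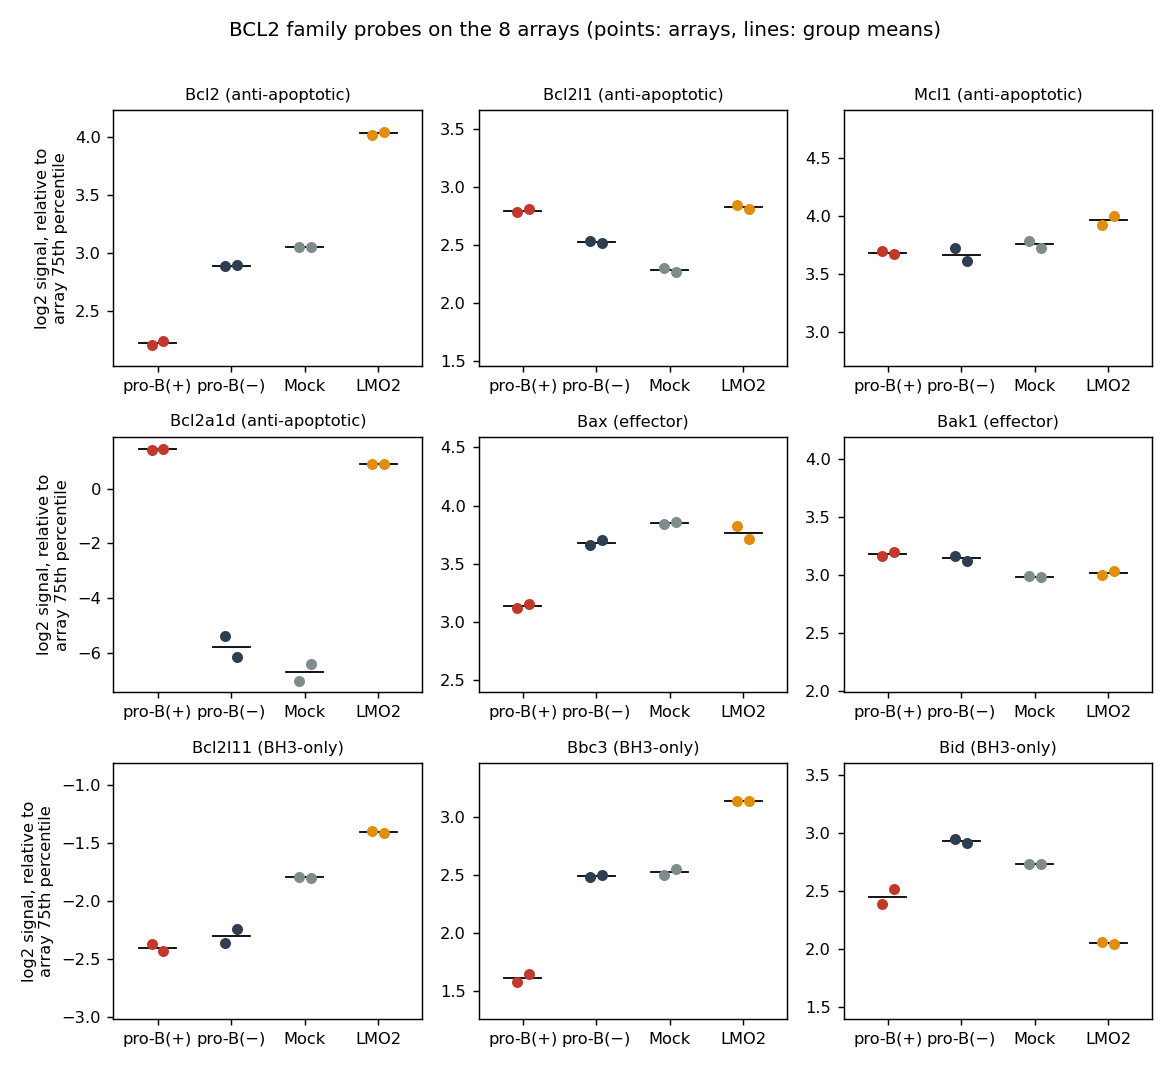
Signal of each BCL2 family gene on the 8 arrays, as log2 relative to the array's 75th percentile (vertical axis), by group (horizontal axis); points are arrays, lines are means of 2 arrays, and the axis of Bcl2a1d spans a wider range than the others. Bcl2 and Bbc3 are lowest in pro-B(+) and highest in LMO2 cells, Bid is lowest in LMO2 cells, and Bcl2a1d is high in pro-B(+) and LMO2 cells alone.

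Bcl2, the founding anti-apoptotic gene, had levels of 2.21 and 2.25 on the pro-B(+) arrays, 2.89 and 2.90 on the pro-B(-) arrays, 3.06 and 3.06 on the Mock arrays, and 4.02 and 4.05 on the LMO2 arrays. No groups overlapped, and the line with T-lineage potential had the lowest level of the 4. Relative to pro-B(-) cells, Bcl2 was 1.58-fold lower in pro-B(+) cells (log2 change -0.66, SE 0.033, limma adjusted p = 3.0e-05) and 1.97-fold higher in LMO2 than in Mock cells (log2 change 0.98, SE 0.033, limma adjusted p = 5.8e-06). The Bcl2 changes in these comparisons therefore had opposite signs, and they differed by -1.64 log2 units (95% interval -1.75 to -1.52, limma adjusted p = 1.1e-05). Introduction of Lmo2 took Bcl2 away from its level in pro-B(+) cells: the LMO2 arrays stood 1.80 log2 units above the pro-B(+) arrays, a difference in which group and slide cannot be told apart.

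Bcl2l1, which encodes BCL-XL, had levels of 2.79 and 2.81 in pro-B(+), 2.53 and 2.52 in pro-B(-), 2.31 and 2.27 in Mock, and 2.85 and 2.81 in LMO2 cells. The pro-B(+) and LMO2 arrays were the highest and lay next to each other. The log2 change was 0.27 between the parental lines, pro-B(+) minus pro-B(-) (SE 0.034, limma adjusted p = 0.0014) and 0.54 in LMO2 against Mock cells (SE 0.034, limma adjusted p = 5.4e-05). The second Bcl2l1 probe gave 0.18 (limma adjusted p = 0.14) and 0.53 (limma adjusted p = 0.0023) for the same comparisons, so only the Lmo2 change was called by both probes. The call of Bcl2l1 between the parental lines also depended on the scaling. With each array scaled to its median in place of its 75th percentile, the change was -0.014 (limma adjusted p = 0.76).

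Mcl1, whose product is short-lived and needed by most haematopoietic progenitors, varied least among the anti-apoptotic genes. Its levels were 3.69 and 3.67 in pro-B(+), 3.72 and 3.61 in pro-B(-), 3.78 and 3.73 in Mock, and 3.92 and 4.0 in LMO2 cells. The parental groups overlapped, and the LMO2 arrays lay above all others. The change between the parental lines was 0.02 (limma adjusted p = 0.82), and the change with Lmo2 was 0.20 (SE 0.053, limma adjusted p = 0.017). That call was lost without the second Mock array (0.17, limma adjusted p = 0.090), without the second LMO2 array (0.16, limma adjusted p = 0.085) and with no filter on dim probes (limma adjusted p = 0.059). With each array scaled to its median, Mcl1 reversed to -0.27 between the parental lines (limma adjusted p = 0.0090) and was at -0.00046 with Lmo2 (limma adjusted p = 0.995). The second Mcl1 probe was called in both comparisons, at 0.36 (limma adjusted p = 0.0026) and 0.41 (limma adjusted p = 0.00082), so the probes of Mcl1 disagree on the parental lines.

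That alternative scaling moved the median change of all probes by -0.29 in the parental comparison and by -0.20 in the Lmo2 comparison, and it moved each member by the same amount. Relative to the median of all probes tested, the parental changes were -0.62 for Bcl2, 0.31 for Bcl2l1, 0.06 for Mcl1, -0.50 for Bax, 0.08 for Bak1, -0.06 for Bcl2l11, -0.84 for Bbc3 and -0.44 for Bid. The corresponding Lmo2 changes were 1.03 for Bcl2, 0.59 for Bcl2l1, 0.25 for Mcl1, -0.04 for Bax, 0.08 for Bak1, 0.44 for Bcl2l11, 0.66 for Bbc3 and -0.63 for Bid. Changes of the size seen for Mcl1 and Bak1 are thus within what the choice of scaling alone can shift, while those of Bcl2, Bbc3, Bid and Bcl2a1d kept their sign and their call in both comparisons.

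The member that differed most was Bcl2a1d, a copy of the gene for A1, an anti-apoptotic protein of haematopoietic cells. The mouse genome holds several near-identical A1 copies on chromosome 9, and their promoters are shown because the probes of Bcl2a1d and of Bcl2a1c, a copy outside the listed members, moved together. Each line gives 100 bases of a RefSeq promoter in GRCm38.p6, read 5′ to 3′ on the strand of the gene and aligned on the motif GAGGAAGT, which is in capitals. The stretches end 10 bases before the annotated start for Bcl2a1d and Bcl2a1a, 54 before it for Bcl2a1b and 120 before it for Bcl2a1c, at chr9:88731861-88731960 on the minus strand for Bcl2a1d, and on the plus strand chr9:88956810-88956909 for Bcl2a1a, chr9:89199119-89199218 for Bcl2a1b and chr9:114329915-114330014 for Bcl2a1c.
Bcl2a1d: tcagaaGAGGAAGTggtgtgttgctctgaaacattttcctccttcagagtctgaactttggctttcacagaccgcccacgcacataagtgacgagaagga
Bcl2a1b: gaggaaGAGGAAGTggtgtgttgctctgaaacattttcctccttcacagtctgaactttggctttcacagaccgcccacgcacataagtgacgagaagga
Bcl2a1a: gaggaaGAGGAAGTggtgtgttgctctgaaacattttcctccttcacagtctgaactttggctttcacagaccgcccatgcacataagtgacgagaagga
Bcl2a1c: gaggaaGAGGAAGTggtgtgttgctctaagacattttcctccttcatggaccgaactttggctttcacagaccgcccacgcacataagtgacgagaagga

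The windows were alike at 96 of 100 bases between Bcl2a1d and Bcl2a1b, at 95 between Bcl2a1d and Bcl2a1a, at 91 between Bcl2a1d and Bcl2a1c, and at 99 between Bcl2a1a and Bcl2a1b. The motif GAGGAAGT, a form of the site that the ETS factor PU.1 is known to bind, ended 96 bases before the annotated start of Bcl2a1d and Bcl2a1a, 140 bases before that of Bcl2a1b and 206 bases before that of Bcl2a1c. Searched on both strands of the RefSeq promoter windows given for each start, it was in 3.2% of 32851 promoters, and among the 15 promoters of the 10 members it was in those of Bcl2a1b, Bcl2a1d and Bak1. AGATAA, the GATA site, was in 11.2% of all promoters and in that of Bcl2l1. TGTGGT, the core of the RUNX site, was in 16.8% of all promoters and in that of Bak1. These are matches of letters in copied sequence and do not show binding.

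The Bcl2a1d probe had levels of 1.39 and 1.46 on the pro-B(+) arrays and 0.90 and 0.90 on the LMO2 arrays. On the pro-B(-) arrays it had -5.36, well above background, and -6.15, not well above background, and on the Mock arrays it had -7.00 and -6.38, neither of them well above background. In processed intensity, before scaling, these were 2501 and 2381 in pro-B(+), 19.9 and 10.8 in pro-B(-), 5.53 and 8.41 in Mock, and 1137 and 1196 in LMO2 cells. The groups split without overlap into high (pro-B(+), LMO2) and at or near background (pro-B(-), Mock).

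In pro-B(+) cells Bcl2a1d had at least 123-fold the signal of pro-B(-) cells, in which it was well above background on 1 of 2 arrays (fitted log2 change 7.18, SE 0.30, limma adjusted p = 1.7e-05). The Mock arrays gave a bound alone, and LMO2 cells had at least 128-fold more signal. The limma adjusted p = 1.1e-05 is that of the fitted log2 change of 7.59, which uses Mock values not well above background. Both bounds set the mean of the higher group against a mean of the lower group in which each array takes the higher of the probe's own value and the lowest signal of any probe well above background there. Between LMO2 and pro-B(+) cells the change was -0.52 (95% interval -1.29 to 0.24, limma adjusted p = 0.17), across slides. The parental and Lmo2 changes of Bcl2a1d differed by -0.41 (95% interval -1.50 to 0.67, limma adjusted p = 0.46), a value that rests on signals at background in both low groups. With normexp background correction and an offset of 50, the changes of Bcl2a1d were smaller, at 4.54 between the parental lines and 4.21 with Lmo2, and both kept their call.

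The Bcl2a1c probe had the same split. Its levels were -1.83 and -1.82 in pro-B(+) and -2.54 and -2.59 in LMO2 cells, and it was not well above background on any of the 4 arrays of pro-B(-) and Mock cells. Relative to pro-B(-) cells, pro-B(+) cells were at least 15.9-fold higher, and relative to Mock cells, LMO2 cells were at least 11.6-fold higher. The fitted log2 changes were 5.34 and 5.50 (limma adjusted p = 8.1e-06 and 6.1e-06). They use values not well above background in the low groups. Since the A1 copies are near-identical, the signal of either probe cannot be assigned to 1 copy with certainty.

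**Figure D2:**
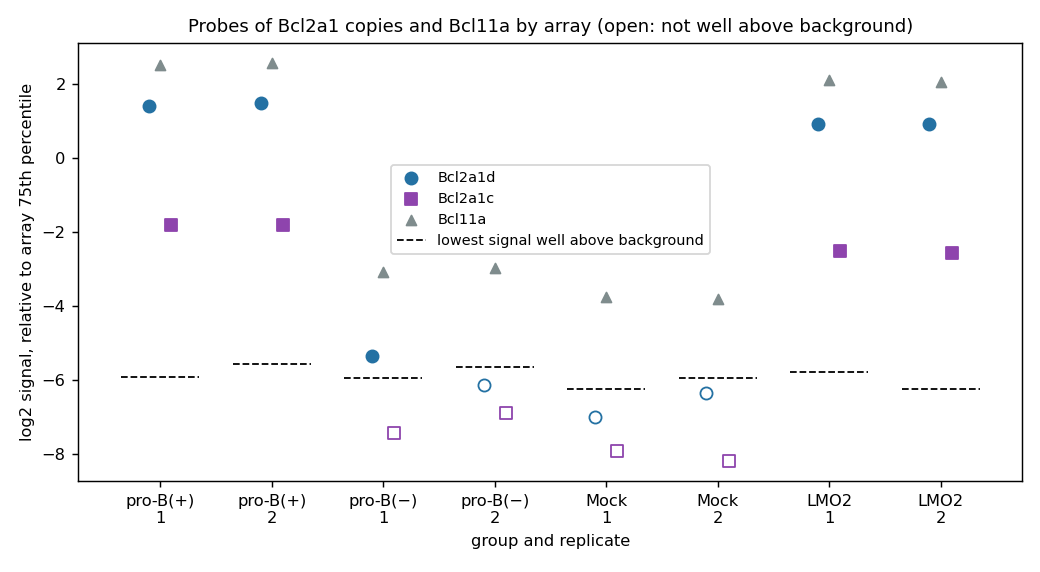
Log2 signal relative to the array's 75th percentile (vertical axis) of the Bcl2a1d, Bcl2a1c and Bcl11a probes on each of the 8 arrays (horizontal axis: group and replicate); open symbols were not well above background and dashes mark the lowest signal well above background on that array. Bcl2a1d lies between 0.90 and 1.46 on the pro-B(+) and LMO2 arrays and at or near background on the pro-B(-) and Mock arrays, and Bcl11a stays above background on all 8.

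A1 is known to be expressed in myeloid cells as well as in lymphocytes, so the marker lists are given beside it. The summed linear signal of 14 myeloid markers was 128 to 130 in pro-B(+), 80.3 to 89.0 in pro-B(-), 77.1 to 78.7 in Mock and 79.6 to 85.0 in LMO2 cells. The highest level of the list in each group was that of Csf3r (6.04, 6.21, 6.05 and 5.78 log2 in the same order of groups), which weighs most in the sum. By count, 11 of 14 were higher and 1 lower in pro-B(+) than pro-B(-) cells, beside 20.9% and 28.1% of all probes, and 6 of 12 tested were higher and 3 lower with Lmo2, beside 28.0% and 36.8%. Among those with the split of Bcl2a1d, chosen after their values were seen, Mpo was at 4.0, 0.57, -0.42 and 3.96, Lyz1 at 2.98, -3.59, -5.40 and -0.67, and Prtn3 at 0.04, -4.18, -4.65 and -1.88. Both pro-B(+) arrays had all 14 well above background. S100a8 and S100a9, genes known from neutrophils, were well above background in pro-B(+) cells and in no other group. Lyz2, a lysozyme gene, was well above background in pro-B(+) and LMO2 cells and not in pro-B(-) or Mock cells. Other genes of the list lacked that split. Adgre1 was at 1.46, -1.19, -0.21 and -1.43, Csf1r at 3.65, -0.80, -1.38 and -0.63, and Ctsg at -1.44, -4.97, -4.88 and -7.24, in LMO2 cells not well above background. The 12 T and NK markers summed to 38.2 to 40.1, 53.4 to 56.6, 63.2 to 64.1 and 72.3 to 73.9 in the same order of groups, and the number well above background on each array of the group was 11 in pro-B(+), 5 in pro-B(-), 8 in Mock and 11 in LMO2 cells. Thy1 was the highest of that list in each group (4.09, 5.09, 5.49 and 4.63) and weighs most in the sum. By count, 7 of 11 tested were higher and 2 lower in pro-B(+) than pro-B(-) cells. With Lmo2, 8 of 11 were higher and 1 lower, beside the same shares of all probes as for the myeloid list. The 15 stromal markers summed to 30.4 to 31.0, 14.3 to 14.9, 32.2 to 33.6 and 41.7 to 42.8, and the 13 pro-B markers to 27.3, 35.4 to 35.5, 36.7 to 40.0 and 49.8 to 52.1. Dntt, at -4.83, -1.92, 0.35 and 4.37, had the highest level of the pro-B list in LMO2 cells and weighs heavily in that sum. By count, 1 of 12 pro-B markers tested was higher and 7 lower between the parental lines. With Lmo2, 2 of 11 were higher and 7 lower, beside the same shares of all probes. The 1 higher between the parental lines was Cd79b, at -0.53, -5.68, -5.24 and -3.58, in pro-B(-) cells not well above background. Of the stromal markers tested, 10 of 11 were higher and 0 lower between the parental lines. With Lmo2, 8 of 13 stromal markers were higher and 2 lower. The part of cells with any of these markers in the A1 signal was not tested, and in bulk RNA more cells with a transcript and more transcript per cell cannot be told apart.

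The effectors moved less. Bax, which forms pores in the outer mitochondrial membrane, had levels of 3.12 and 3.15 in pro-B(+), 3.66 and 3.71 in pro-B(-), 3.84 and 3.86 in Mock, and 3.82 and 3.71 in LMO2 cells. The pro-B(+) arrays were below all others, with a change of -0.54 against pro-B(-) cells (SE 0.048, limma adjusted p = 0.00032). With Lmo2 the change was -0.09 (95% interval -0.21 to 0.03, limma adjusted p = 0.15), although with each array scaled to its median it was -0.29 (limma adjusted p = 0.0017).

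Bak1, the gene of the second pore-forming effector, was at 3.16 and 3.20 in pro-B(+), 3.16 and 3.12 in pro-B(-), 2.99 and 2.98 in Mock, and 3.00 and 3.03 in LMO2 cells. Within a slide the groups lay next to each other. The change was 0.04 between the parental lines (95% interval -0.05 to 0.12, limma adjusted p = 0.42) and 0.03 with Lmo2 (95% interval -0.06 to 0.12, limma adjusted p = 0.49). With each array scaled to its median, Bak1 was lower in both comparisons, at -0.25 (limma adjusted p = 0.0019) and -0.17 (limma adjusted p = 0.0085), and with quantile normalisation its Lmo2 change was 0.16 (limma adjusted p = 0.0092), so no direction can be given.

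Among the BH3-only genes, Bbc3, which encodes the p53 target PUMA, had the widest span. Its levels were 1.58 and 1.64 in pro-B(+), 2.48 and 2.50 in pro-B(-), 2.50 and 2.55 in Mock, and 3.14 and 3.13 in LMO2 cells. The pro-B(+) arrays were the lowest and the LMO2 arrays the highest, as for Bcl2. Relative to pro-B(-) cells, Bbc3 was 1.84-fold lower in pro-B(+) cells (log2 change -0.88, SE 0.039, limma adjusted p = 2.0e-05) and 1.53-fold higher in LMO2 than in Mock cells (log2 change 0.61, SE 0.039, limma adjusted p = 5.8e-05). The difference of -1.49 between these changes had an adjusted p of 2.5e-05 (limma).

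Bcl2l11, the gene of BIM, a direct activator of BAX and BAK, was at -2.37 and -2.43 in pro-B(+), -2.36 and -2.24 in pro-B(-), -1.79 and -1.80 in Mock, and -1.40 and -1.41 in LMO2 cells. The parental groups lay next to each other, with a change of -0.10 (95% interval -0.22 to 0.03, limma adjusted p = 0.16). This change was past the threshold with quantile normalisation (-0.22, limma adjusted p = 0.013), with each array scaled to its median (-0.38, limma adjusted p = 0.0016) and without the first pro-B(-) array (-0.16, limma adjusted p = 0.048). With Lmo2 it rose by 0.39 (SE 0.051, limma adjusted p = 0.00099), and by 0.18 with each array scaled to its median (limma adjusted p = 0.031). Both transduced groups were above both parental lines, across slides.

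Bid, whose product links caspase-8 to mitochondria once it is cleaved, was at 2.39 and 2.52 in pro-B(+), 2.95 and 2.91 in pro-B(-), 2.74 and 2.73 in Mock, and 2.06 and 2.05 in LMO2 cells. Bid was lower in each comparison, with a change of -0.48 between the parental lines (SE 0.050, limma adjusted p = 0.00065) and of -0.68 with Lmo2 (SE 0.050, limma adjusted p = 9.6e-05). The difference between these changes was 0.20 (95% interval 0.02 to 0.38, limma adjusted p = 0.060). Bid and Bcl2l1 were the members measured on all 8 arrays that were called in the same direction in both comparisons. The second Bcl2l1 probe was called with Lmo2 alone.

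**Figure D3:**
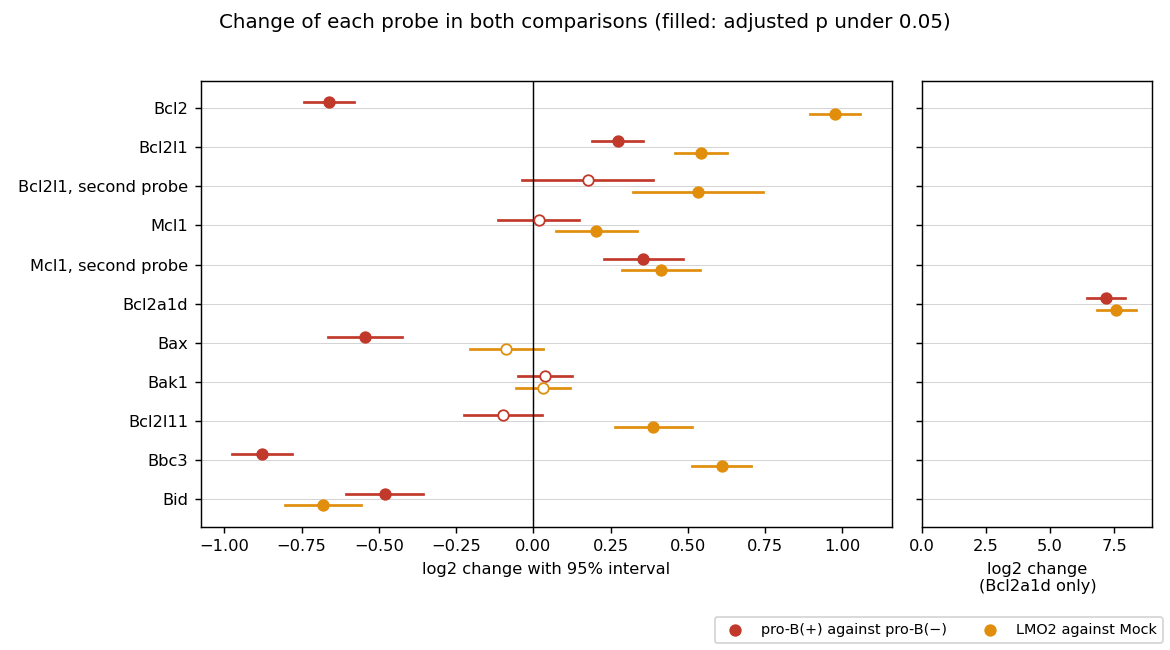
Log2 change of each of the 11 probes (horizontal axis) between the parental lines, pro-B(+) against pro-B(-), and between LMO2 and Mock cells, with 95% intervals from the fit (2 arrays per group); filled points have an adjusted p under 0.05, and Bcl2a1d has an axis of its own on which its intervals rest on signals at background. Bcl2 and Bbc3 lie on opposite sides of 0 in the comparisons, and Bid lies below 0 in both.

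Whether the changes with Lmo2 matched the difference between the parental lines was tested as the difference of the changes. Of the 9 members, 5 had a lower parental change than Lmo2 change, beside 54.0% of 24583 probes called in either direction (29.3% higher, 24.7% lower): Bcl2, Bbc3, Bcl2l11 (-0.49, limma adjusted p = 0.0028), Bax (-0.46, limma adjusted p = 0.0028) and Bcl2l1 (-0.27, limma adjusted p = 0.0054). For the second Bcl2l1 probe the difference was -0.36 (limma adjusted p = 0.053) and was not called. Mcl1 (-0.19, limma adjusted p = 0.087), Bcl2a1d, Bak1 (0.01, limma adjusted p = 0.91) and Bid did not pass. A missed threshold does not show that the changes of these 4 were equal.

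Between the transduced control and its parent, pro-B(-)/Mock against pro-B(-), 6 of the 8 members tested were called, beside 59.3% of 23047 probes (28.9% higher, 30.4% lower). Bcl2l11 (0.51), Bax (0.17) and Bcl2 (0.16) were higher and Bcl2l1 (-0.24), Bid (-0.20) and Bak1 (-0.16) were lower in Mock cells, by limma at adjusted p-values of 0.00053 to 0.024. The second Bcl2l1 probe was not called (-0.11, limma adjusted p = 0.32). Mcl1 (0.09) and Bbc3 (0.04) did not pass, and Bcl2a1d was not tested since neither group had it on both arrays. Here transduction and slide cannot be told apart. In the other settings tried, Bcl2, Bax, Bak1 and Bid each lost the call in at least 1. The calls of Bcl2l1 and Bcl2l11 held in all. The count fell to 3 without the second Mock array and to 3 without the first pro-B(-) array.

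Against pro-B(+) cells, pro-B(-)/LMO2 cells had 5 members higher and 2 lower, beside 76.4% of the 24133 probes tested (34.8% higher, 41.6% lower). The higher members were Bcl2 (1.80), Bbc3 (1.52), Bcl2l11 (0.99), Bax (0.63) and Mcl1 (0.28), the lower ones Bid (-0.40) and Bak1 (-0.16), each by limma at an adjusted p of 0.0069 or less. The second Mcl1 probe was at -0.0090 (limma adjusted p = 0.88), so the Mcl1 probes disagree here. Bcl2l1 (0.03, limma adjusted p = 0.41) and Bcl2a1d did not pass, although the second Bcl2l1 probe did (0.25, limma adjusted p = 0.039). In this comparison too, group and slide cannot be told apart.

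The group means of Bcl2, Bbc3 and Bcl2a1d spanned at least 1 log2 unit, and the genes whose pattern was nearest to theirs over the 8 arrays were sought among 11641 or more candidates, by the root mean square (RMS) difference of levels centred on each gene's mean. Only genes well above background on all 8 arrays were candidates, so genes at background in some groups, such as Bcl2a1c, were left out. Nearest to Bcl2 were Pik3ip1 (0.085), Fhit (0.086) and Ripor2 (0.091). Nearest to Bbc3 were Gimap9 (0.055), Rab37 (0.066) and Gria3 (0.076). Nearest to Bcl2a1d were H2-Ab1 (0.42), Bcl11a (0.88) and H2-Eb1 (0.95), of which H2-Ab1 and H2-Eb1 encode MHC class II chains. The distances to Bcl2a1d use its values on the 3 arrays where it was not well above background, so they and their order rest in part on signals at background. With 4 groups of 2 arrays, a pattern has few points, and likeness is given as a description.

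Bcl11a, a zinc-finger repressor that the study links to Bcl2, stood at group means of 2.53 in pro-B(+), -3.04 in pro-B(-), -3.79 in Mock and 2.07 in LMO2 cells. The ratio was 47.7-fold between the parental lines and 58.2-fold between LMO2 and Mock cells (limma adjusted p = 2.4e-07 and 1.8e-07). Bcl2 and Bcl11a both rose with Lmo2, whereas between the parental lines Bcl11a was higher and Bcl2 lower in pro-B(+) cells. In the study the link rests on earlier work and on less death of pro-B(-) cells given BCL2, with and without Notch stimulation. The values here are RNA levels, and the labels do not say whether the cells met a Notch ligand.

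The other genes of the pathway were counted from lists, beside the shares of all probes called, which were 20.9% higher and 28.1% lower between the parental lines and 28.0% higher and 36.8% lower with Lmo2. Further anti-apoptotic genes were higher in both comparisons where tested: Bcl2l2, which encodes BCL-W, changed by 1.21 between the parental lines (limma adjusted p = 5.5e-06) and by 0.37 with Lmo2 (limma adjusted p = 0.00037), beside Bcl2a1c. Bcl2l10 was well above background in no group and Bcl2a1a was matched by no probe. Bcl2l2, the 1 gene of this list tested in Mock against pro-B(-) cells, was higher there by 1.53. That exceeded both of its changes above, and transduction and slide cannot be told apart in it. Bok, an effector-like gene, was higher by 1.58, with 1 of 2 pro-B(-) arrays well above background, and by 1.12 (limma adjusted p = 0.00010 and 0.00026).

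Of the other BH3-only genes, Pmaip1, which encodes the p53 target NOXA, was higher in both comparisons, by 0.43 (limma adjusted p = 0.0021) and 1.61 (limma adjusted p = 7.9e-06). Bad was lower in both, at -0.26 and -0.23, and Bmf was at -0.31 between the parental lines and 0.16 with Lmo2. Bik had at least 1.43-fold more signal in the pro-B(+) line. In all, 4 of 4 tested were called between the parental lines, 2 in each direction, and with Lmo2 2 of 3 rose and 1 fell, beside 48.9% and 64.8% of all probes called. Of the atypical BCL2-like genes, 1 of 5 tested was called between the parental lines (Bcl2l12, -0.37; all probes 48.9%) and 4 of 6 with Lmo2 (all probes 64.8%), where Bcl2l14 (1.20) and Bnip3l (0.20) rose and Bnip3 (-0.72) and Bcl2l13 (-0.27) fell.

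Downstream of the family, the genes of mitochondrial release and of the apoptosome fell with Lmo2: 7 of 8 were lower and 0 higher, beside 36.8% of all probes lower, with a list median of -0.47 against -0.05. Endog, a mitochondrial nuclease, was at -1.29, Cycs, which encodes cytochrome c, at -0.81, and Vdac2, an outer membrane channel, at -0.54. Between the parental lines 1 was higher (Endog, 0.53) and 1 lower (Diablo, -0.11). Of 6 caspases, 2 were lower and 0 higher between the parental lines, beside 48.9% of all probes called, and 2 fell and 1 rose with Lmo2, beside 64.8%. The inhibitor-of-apoptosis genes had 2 higher and 2 lower of 5 in each comparison, beside 48.9% and 64.8% of all probes called. With Lmo2, Birc2 (0.62) and Birc3 (0.57) rose, and Birc5 (-0.71), the mitotic survivin gene, fell.

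Of the death receptor genes, 3 were higher and 3 lower of 7 tested between the parental lines, and 5 were higher and 1 lower of 8 with Lmo2, beside 48.9% and 64.8% of all probes called. Tnfrsf10b, the mouse TRAIL receptor gene, was higher in both (1.19 and 0.57). Fas rose by 0.70 with Lmo2, and the gene of its ligand, Fasl, was at least 11.4-fold above its bound in Mock cells, in which neither array had it well above background.

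The survival signals that feed the family had 2 genes higher and 5 lower of 14 between the parental lines, where 20.9% of all probes were higher and 28.1% lower, and 9 higher and 4 lower with Lmo2, where these shares were 28.0% and 36.8%. Kit, the SCF receptor gene, was higher in both, at 2.24 and 1.54 (limma adjusted p = 3.5e-06 and 1.2e-05). In pro-B(+) cells Il2rg (0.41) was also higher, whereas Il7r (-0.64), Socs2 (-0.63) and Jak3 (-0.57) were lower. With Lmo2, Pim2 (1.33), a survival kinase gene, and Cish (0.97) rose, whereas Socs2 (-0.58) and Flt3 (-0.46) fell.

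Among 13 regulators of the family, 3 were higher and 4 lower between the parental lines, and 7 were higher and 3 lower with Lmo2. The share called was 53.8% of the regulators and 48.9% of all probes between the parental lines, and 76.9% and 64.8% with Lmo2. Besides Bcl11a, Foxo1, a forkhead factor, was higher in both comparisons (1.74 and 1.67), and Cdkn2a, the Ink4a/Arf gene, was lower in both (-4.0 and -1.56). Foxo3, a forkhead factor known to induce Bcl2l11 and Bbc3, was at -0.28 between the parental lines (limma adjusted p = 0.032) and 0.71 with Lmo2 (limma adjusted p = 0.00051).

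In a list of 10 targets of p53 without Bbc3, nearly all were lower in pro-B(+) cells. Of 9 tested, 8 were lower and 1 higher, with a list median of -0.65 beside -0.04 for all probes, which had 28.1% lower. The largest decreases were those of Zmat3 (-1.62), Cdkn1a (-0.89) and Trp53inp1 (-0.83), and the exception was Tnfrsf10b. The list does not hold Pmaip1, given above with the BH3-only genes, which was higher in both comparisons. With Lmo2, 5 rose and 2 fell of 9, beside 28.0% and 36.8% of all probes, among them Trp53inp1 (0.85), Tnfrsf10b (0.57) and Cdkn1a (0.46) higher and Gtse1 (-0.90) and Aen (-0.63) lower. Cdkn1a and Trp53inp1 thus had the signs of Bbc3 in both comparisons.

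The medians of all probes were -0.04 between the parental lines and -0.05 with Lmo2. Between the parental lines the list median was 0.08 for the other BH3-only genes, -0.10 for the atypical genes, 0.02 for mitochondrial release, -0.11 for caspases, -0.0017 for the inhibitors of apoptosis, -0.05 for death receptors, -0.08 for survival signals and 0.02 for the regulators. With Lmo2 it was 0.16, 0.04, -0.47, -0.02, -0.02, 0.23, 0.57 and 0.11 in the same order of lists, so the largest of these medians in size were those of survival signals and mitochondrial release.

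**Figure D4:**
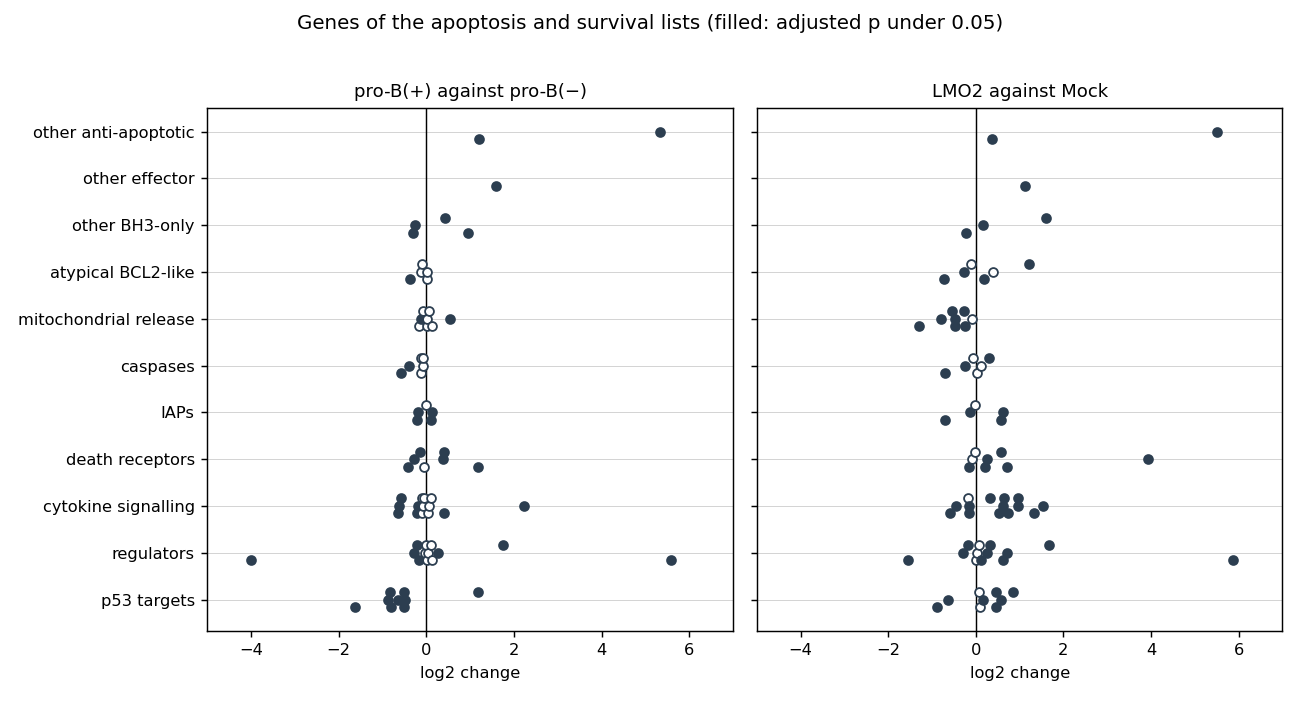
Log2 change (horizontal axis) of each tested gene of the apoptosis and survival lists (rows), for the parental lines, pro-B(+) against pro-B(-), and for LMO2 against Mock; filled points have an adjusted p under 0.05, and points of genes not well above background in 1 group, such as Bcl2a1c and Fasl, are fitted values. The p53 targets sit to the left of 0 in the first panel with the exception of Tnfrsf10b, and the mitochondrial release genes sit to the left of 0 in the second.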

How the data were processed

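Cy3-labelled RNA of 8 samples, 2 per group, was hybridised to Agilent Whole Mouse Genome 4x44K v2 arrays, 1 array each. Per the file headers, the authors deposited spot intensity from Feature Extraction 11.5.1.1, background-subtracted and detrended, on a design annotated on mm9; these intensities were the starting values. The authors also deposited a table of log2 values, normalised to the 75th percentile in GeneSpring GX 12 according to the methods, which was used as an alternative; for probes with 1 spot, each column equalled the log2 values computed here up to an array constant, so log2 scale, no centring of genes and direction were settled.

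Control spots and 51 probes with an outlier spot were left out. Each array was expressed as log2 intensity minus its 75th percentile. Symbols came from RefSeq GRCm38.p6 through transcript accessions (67.4% of 39378 probes). A probe was tested if the replicates of at least 1 group compared both had it well above background, with limma 3.58.1 in R 4.3.3: 1 fit on 8 arrays with 4 group means and 4 residual degrees of freedom, and Benjamini-Hochberg adjustment over all probes tested in that comparison, at 0.05. For a single value, 2 against 2 arrays cannot give an exact two-sided permutation p below 0.333. The number of arrays limits the precision. The steps were tested on simulated data. The same replicate number did not pair arrays (correlation of deviations -0.03 to 0.05 over 6 pairs of groups).

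The members and lists were chosen with earlier results of these data known. All members were named, and from each other list at most the 3 largest called changes per direction and comparison. Some genes of these lists are not reported here. Alternatives were other scalings (median, quantile), normexp background correction with an offset of 50, the deposited log2 values, no or a stricter filter on dim probes, outlier spots kept, an intensity trend, separate fits, a replicate block, the mean over probes of a gene, and leaving out each array.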

Additional observations from a re-analysis of the deposited data

Results flagged for a closer look

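For 5 members the change in pro-B(+) against pro-B(-) cells differed from the change in LMO2 against Mock cells by a test of the difference itself (limma, 2 arrays per group), beside 54.0% of all probes tested. Bcl2 differed by -1.64 and Bbc3 by -1.49, and for both the changes had opposite signs, each past the threshold. Bcl2l11 differed by -0.49, with a called change with Lmo2 alone. Bax differed by -0.46, with a called change between the parental lines alone. Bcl2l1 differed by -0.27, with called changes of the same sign. Its second probe was not called for the difference (-0.36, limma adjusted p = 0.053) or between the parental lines.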

How the results depend on the processing

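Of 653 member values under the alternatives, 610 kept their direction and their side of the threshold, 16 lost the call, 12 gained it and 15 changed sign. With each array's median, Bcl2l1 (-0.014), Mcl1 (-0.27) and Bak1 (-0.25) changed sign between the parental lines and Mcl1 (-0.00046) and Bak1 (-0.17) with Lmo2; the scaling itself lowered every change by the same amount. It also raised the probes called between the parental lines from 11485 to 18592 and lowered the share of higher calls from 42.6% to 15.9%, and with Lmo2 from 43.3% to 24.6%. With normexp on the median signals, an alternative chosen after seeing the data since the files hold no mean-signal column (the planned form on mean signals was not run), the difference of Bcl2a1d was 0.33 (limma adjusted p = 0.0017) and that of Bbc3 in Mock against pro-B(-) cells was -0.030; the cause was not tested. With quantile normalisation, the Lmo2 change of Bax was 0.079 and the difference 0.080 for Bcl2a1d and -0.10 for Bak1, none called. The difference of Bak1 was -0.074 with each array's median. The parental calls of Bcl2, Bcl2a1d, Bax, Bbc3 and Bid and the Lmo2 calls of Bcl2, Bcl2l1, Bcl2a1d, Bcl2l11, Bbc3 and Bid held under every alternative that could be fitted.

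Leaving out 1 array at a time, 8712 to 11137 probes and 6 to 7 members were called between the parental lines, 13108 to 14813 and 6 to 7 with Lmo2, 11730 to 12152 and 5 to 6 for the difference, and 10990 to 13297 and 3 to 6 for Mock against pro-B(-) cells, where a group left with 1 array is assumed to vary like the others. The parental change of Mcl1 then ranged from -0.037 to 0.070 and the difference of Bak1 from -0.014 to 0.029, neither called. With the replicate number as a block, 11230, 14713, 12925 and 13282 probes and 6, 7, 5 and 6 members were called, and no member's call changed. Bcl2a1d was not tested under the strictest filter, and its low groups are limited by signal over background.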
